A study of Mus musculus with 12 samples.

Results

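The distal end of mouse chromosome 2, from 163 Mb to the last 1 kb bin at 182113000 in mm10, was examined in Okazaki fragment sequencing (OK-seq) data because it took more reads in the KMT2C/D dCD line than in the control. It was therefore chosen by measured values, the share of its reads in dCD over control in either cell state, and that gain is given here as a description with no test. The segment spans 19.1 Mb and holds 19113 of the 2633767 bins of 1 kb on the autosomes and chromosome X. The 20000 bins before it, from 143 Mb on, served as the flank.

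OK-seq was done in 6 conditions with 2 replicates each, 12 samples in all, and each deposited track sums the replicates of 1 condition. Such a summed track is called a library below. The control was a line without KMT2C (KMT2C KO). In the KMT2C/D dKO cells, KMT2D was in addition removed from the same KMT2C KO and KMT2D conditional knockout line, through Cre-ER and 4-hydroxytamoxifen. The methods give its background as mixed, from C57BL/6 and 129, and its sex as undetermined. The KMT2C/D dCD cells carry catalytically dead KMT2C and KMT2D, and the methods name R1, a male line of 129 background, for the KMT2D cCD cells. That the dCD cells come from R1 is inferred and not stated for them by name. Where it holds, line of origin and catalytic mutation cannot be told apart in any comparison of dCD with the control. Naive ESCs were kept in LIF and 2i, and EpiLCs, labelled formative by the submitters, had been grown without them.

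Okazaki fragments are the short pieces in which the lagging strand of DNA is made. A fork moving to the right leaves them on one strand and a fork moving to the left on the other, so the Crick percentage, C/(W+C), reports the main direction of forks in a window, while the sum of both strands reports how many labelled fragments came from it. A left-to-right rise in the Crick percentage marks a place where forks start and move apart. KMT2C and KMT2D write H3K4me1, a histone mark of enhancers. Distal mouse chromosome 2 carries genes for pluripotency and germ cell factors, mitotic regulators, and the imprinted Gnas cluster.

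With both states joined, the step in read share was placed inside Mybl2, whereas naive reads of both strands alone placed it just outside the gene. One of the steepest rises in Crick percentage inside the segment, called in both states, lay between Stau1 and Ddx27. The promoters of these genes are shown for that reason, from RefSeq (GRCm38.p6), each read 5′ to 3′ on the strand of its gene, with every CG in capitals. They cover 250 bases before to 50 bases after the RefSeq start and lie at chr2:163054385-163054684 (plus strand), chr2:166996250-166996549 (minus strand) and chr2:167015063-167015362 (plus strand).
Mybl2: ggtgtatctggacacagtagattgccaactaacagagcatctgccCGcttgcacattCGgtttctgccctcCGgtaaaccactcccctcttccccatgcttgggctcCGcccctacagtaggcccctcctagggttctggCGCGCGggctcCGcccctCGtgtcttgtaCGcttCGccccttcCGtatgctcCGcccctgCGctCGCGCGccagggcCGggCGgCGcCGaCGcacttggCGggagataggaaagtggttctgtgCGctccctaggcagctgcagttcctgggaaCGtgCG
Stau1: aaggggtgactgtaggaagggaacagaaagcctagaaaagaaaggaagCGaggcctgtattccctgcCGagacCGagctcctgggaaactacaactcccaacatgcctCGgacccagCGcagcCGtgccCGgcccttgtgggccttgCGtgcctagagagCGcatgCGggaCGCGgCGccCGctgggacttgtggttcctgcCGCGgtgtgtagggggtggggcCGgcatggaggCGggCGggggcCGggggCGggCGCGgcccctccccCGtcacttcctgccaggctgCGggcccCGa
Ddx27: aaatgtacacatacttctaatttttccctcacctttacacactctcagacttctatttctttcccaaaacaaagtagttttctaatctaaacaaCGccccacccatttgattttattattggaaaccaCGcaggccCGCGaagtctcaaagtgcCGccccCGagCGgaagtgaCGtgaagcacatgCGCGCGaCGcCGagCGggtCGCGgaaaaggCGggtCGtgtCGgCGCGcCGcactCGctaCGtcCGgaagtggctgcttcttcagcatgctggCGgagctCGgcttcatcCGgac
The motif CG, which reads the same on both strands, occurred 26 times in the Mybl2, 26 times in the Stau1 and 28 times in the Ddx27 promoter. Of all 32851 promoters of this length, 94.6% held at least 1 CG, the median was 7, and 16.9% held 26 or more. RefSeq lists 2 promoters for Stau1, and the one nearest the GENCODE start is shown.

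In the dCD line, the segment gained reads along nearly its whole length, on both strands and in both cell states. In naive ESCs it held 0.833% of the reads of the control (36571 reads), 0.829% in dKO (32466) and 1.13% in dCD (40972). In EpiLCs the shares were 0.778% (88510 reads), 0.806% (104183) and 1.08% (147173). Both summed dCD tracks thus lay above all 4 other tracks, and the replicates within a track were not seen apart.

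The ratio of the dCD share to the control share was 1.35 in naive ESCs (95% counting interval 1.33 to 1.37) and 1.39 in EpiLCs (1.38 to 1.40). Against the dKO libraries in place of the control it was 1.36 (1.34 to 1.38) and 1.34 (1.33 to 1.36). These intervals cover counting error only, since reads without molecular identifiers may be copies of the same molecule and the spread between replicates cannot be read from summed tracks. The dKO line, which shares its origin with the control, had ratios of 0.994 (0.980 to 1.01) and 1.04 (1.03 to 1.05). The second interval excluded 1, and the ends of the other 18 autosomes reached the same 1.04 in EpiLC dKO cells.

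The flank did not share the gain. Its dCD share was 0.914% in naive ESCs against 0.937% in the control, and 0.880% against 0.928% in EpiLCs, so that the segment over the flank was 1.39 times its control value in naive ESCs (1.36 to 1.41) and 1.47 times in EpiLCs (1.45 to 1.49). Chromosome 2 before the flank had a ratio of 1.01 (1.01 to 1.02) in naive ESCs and 1.0 (0.997 to 1.0) in EpiLCs.

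Watson and Crick reads gained alike. In naive ESCs the ratio was 1.34 for Watson and 1.37 for Crick reads, and in EpiLCs it was 1.39 for either strand. Of the reads above the control share, 52.4% were Crick reads in naive ESCs (5583 of 10653) and 49.998% in EpiLCs (20749.5 of 41501, both scaled to the control share). They made up 26.0% and 28.2% of the dCD reads in the segment.

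**Figure D1:**
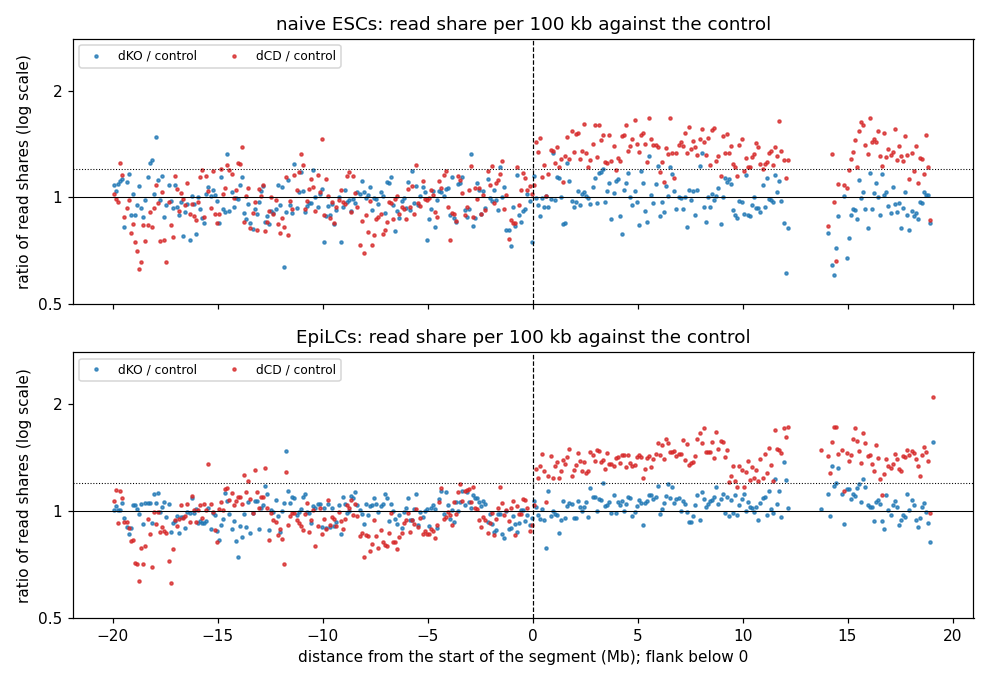
Ratio of read shares over the control per 100 kb window (y axis, log scale) against the distance from the start of the segment in Mb (x axis), with the flank below 0, in naive ESCs (top) and EpiLCs (bottom). Each point is a window with at least 30 control reads, dKO in blue and dCD in red; the dotted line marks 1.2. From 0 on, 144 of 169 naive and 166 of 173 EpiLC dCD windows lie above 1.2, and the empty stretch near 13 Mb held too few reads.

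The gain was spread over the segment rather than carried by a few places. Of 192 windows of 100 kb, 169 had at least 30 control reads in naive ESCs. In EpiLCs 173 had, and the others are not counted. A dCD ratio above 1.2 was found in 144 of 169 windows (85.2%) in naive ESCs, where 9.63% of all 25109 windows passed, and in 166 of 173 (96.0%) in EpiLCs, where 5.68% of 25282 passed. The segment was chosen by this contrast, so nothing further is read from these counts. In the flank 14 of 200 and 6 of 200 windows passed.

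In the dKO line 8 of 169 naive and 8 of 173 EpiLC windows of the segment passed the same ratio, beside 8.19% and 1.48% of all windows. On both strands taken apart, 136 of 169 naive and 169 of 173 EpiLC dCD windows were above 1, against 18.2% and 25.4% of all windows. Of 165 windows with at least 30 reads in all 6 libraries, 142 passed 1.2 in both states, against 1.58% of all 24969 such windows.

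Window ratios in dCD had a median of 1.34 and quartiles of 1.26 and 1.45 in naive ESCs, and a median of 1.41 with quartiles of 1.33 and 1.47 in EpiLCs. Their spread was no wider than that of the flank. The SD of the log2 ratio was 0.19 in the segment and 0.21 in the flank in naive ESCs, where counting alone gives 0.15 and 0.16, and 0.14 and 0.19 in EpiLCs, where counting gives 0.10 and 0.09. No slope along the segment stood out, with a fitted change of -0.0030 log2 units per Mb in naive ESCs and 0.0021 in EpiLCs.

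Over 4 equal stretches of the segment, the naive dCD ratio was 1.35, 1.39, 1.3 and 1.33 from the proximal to the distal one. In EpiLCs it was 1.35, 1.45, 1.35 and 1.40. The corresponding dKO ratios stayed between 0.950 and 1.05, with the distal one at 0.950 in naive ESCs and 1.02 in EpiLCs.

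Windows just inside and just outside the start set the scale of the step. In the last window before it, from 162900001, the control, dKO and dCD libraries held 264, 177 and 224 reads in naive ESCs, where the dCD ratio was 1.02. In EpiLCs they held 629, 682 and 687, with a ratio of 0.915. In the first window of the segment it was 1.08 and 1.04, on 241, 248 and 216 naive and 548, 666 and 680 EpiLC reads. In the window from 163100001 it was 1.43 and 1.31, on 254, 226 and 301 naive and 618, 721 and 968 EpiLC reads. The change thus fell within the window that starts the segment.

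A few stretches inside the segment departed from the rest. The window from 163600001 had dCD ratios of 1.01 (0.818 to 1.25) in naive ESCs and 1.06 (0.948 to 1.19) in EpiLCs, both of which include 1. The window from 181900001, the last with more than 100 control reads in either state, had 0.862 (0.699 to 1.06) and 0.990 (0.886 to 1.11). In naive ESCs the best further step within the segment fell at 181889000, with a ratio of 0.847 after it, whereas in EpiLCs it fell at 165720000 with ratios of 1.33 before and 1.41 after, and positions from 164326000 to 181911000 within 2 log-likelihood units. The naive span ran from 181859000 to 181912000, so the EpiLC span, of 17585 kb, takes in the naive position and does not place a second step by itself.

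From 175000001 to 178000000 few reads were counted in any library. The naive control held 85, 29 and 384 reads in the 3 windows of 1 Mb there, and the EpiLC control 189, 102 and 717, while other full windows of the segment held between 1845 and 2612 naive and between 3990 and 6395 EpiLC control reads. These windows are 10.7%, 24.3% and 10% N in the reference and start 17, 12 and 14 protein-coding genes, Zfp972 among them. The window from 177000001 had a dCD ratio of 1.06 (0.912 to 1.22) in naive ESCs and 1.47 (1.34 to 1.61) in EpiLCs, with dKO at 0.782 and 1.15. With the stretch left out, an alternative chosen after seeing the data, the gain of the segment was 1.36 and 1.39.

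At 1 Mb most windows of the segment lay above nearly all others, which is the contrast by which the segment was chosen. The window from 177000001, at 1.06 in naive ESCs, did not. Among windows with at least 300 control reads, 16 of 17 in the segment passed 1.2 in naive ESCs and 17 of 17 in EpiLCs, against 1.22% and 0.982% of all windows, with the segment included. Outside the segment and the flank 15 of 2501 windows passed in naive ESCs and 8 of 2509 in EpiLCs, and no flank window did. Neighbouring windows that passed in both states formed runs of 12 and 4 windows inside the segment, and elsewhere a lone window on chromosome 6.

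The highest ratio elsewhere was 1.33 in naive ESCs and 1.25 in EpiLCs, beside medians of 1.35 and 1.39 over the segment. The last 19.1 Mb of the other 18 autosomes had dCD ratios from 0.837 to 1.1 in naive ESCs and from 0.796 to 1.04 in EpiLCs. In the dKO line 0 of 17 windows of the segment passed in either state, where 0.0394% and 0.0786% of all windows did. The OK-seq tracks count labelled fragments, and no sequencing of total DNA was used here, so more copies of the segment per cell and more labelled fragments per copy cannot be told apart.

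**Figure D2:**
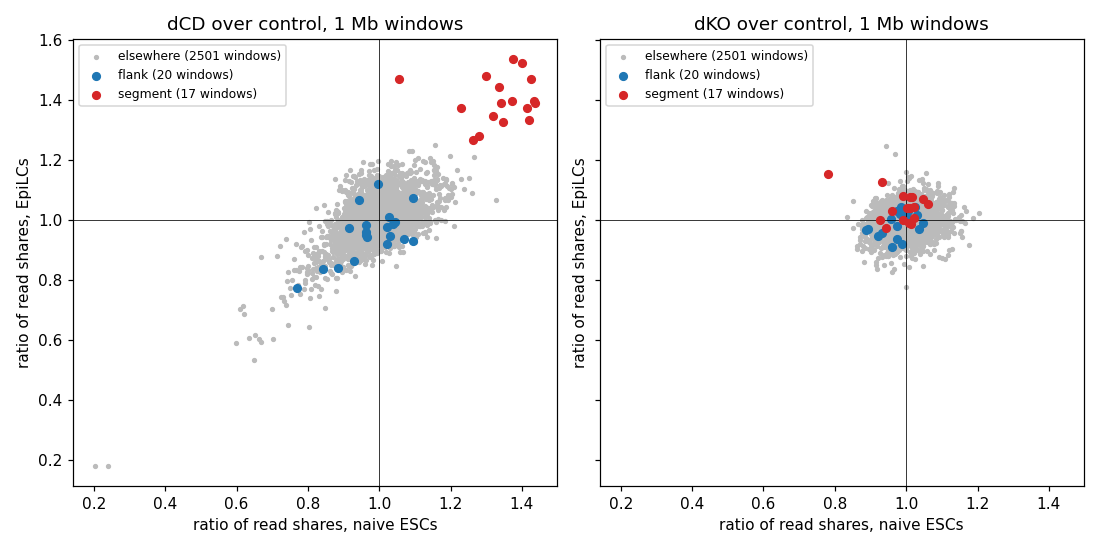
Ratio of read shares over the control in 1 Mb windows, naive ESCs on the x axis and EpiLCs on the y axis, for dCD (left) and dKO (right). Grey points are the 2501 windows elsewhere, blue the 20 of the flank and red the 17 of the segment with at least 300 control reads. In dCD 16 of the 17 red points lie above 1.2 in both states, as does 1 grey point, and in dKO no red point does. Along the naive axis the red points overlap with the grey ones, which reach 1.33.

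The step was placed by the position that best divides the reads into 2 stretches of constant dCD share. With both states joined and the control and dKO reads as the reference, a setting chosen after seeing the data, it fell at 163060000. All positions from 163057000 to 163073000 lay within 2 log-likelihood units. These limits cover counting error only, and window ratios varied more than counting gives, so they may be too narrow. This span of 16 kb lies inside Mybl2 (ENSMUSG00000017861, plus strand, 163054687 to 163084688), which encodes B-Myb, a transcription factor that drives genes of the G2 and M phases. The best position falls in the intron between exon 2, which ends at 163059594, and exon 3, which starts at 163061524, and the span takes in exons 2 to 7.

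Pairs of libraries taken apart gave places near it. Against the control the step fell at 163046000 in naive ESCs (span 163023000 to 163079000) and at 163057000 in EpiLCs (163053000 to 163067000). Against dKO it fell at 163095000 (162842000 to 163102000) and 163060000 (163056000 to 163087000).

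By strand, the EpiLC step was at 163062000 for Watson and 163057000 for Crick reads, and the naive Crick step at 163060000. The naive Watson reads alone placed it at 162191000 (162157000 to 162336000), to the left of the joint position, and against dKO at 162275000. In the 1 Mb left of the joint position the Crick percentage was 33.8% in the naive control, 31.5% in dKO and 27.6% in dCD, so Watson reads made up more of the dCD reads there, while the ratio of both strands together was 1.03 (0.968 to 1.1).

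Genes on either side of the step were read in windows that grow from it. In the 50 kb to its left, which hold Ift52, a gene of the transport machinery of cilia, and the start of Mybl2, the dCD ratio was 0.905 (0.685 to 1.19) in naive ESCs and 0.813 (0.694 to 0.953) in EpiLCs. In the 50 kb to its right, with the rest of Mybl2 and Gtsf1l, it was 1.35 (1.08 to 1.70) and 1.41 (1.21 to 1.65). Over 1 Mb on each side the values were 1.03 and 1.29 in naive ESCs and 0.969 and 1.3 in EpiLCs. The dKO ratio over the same 1 Mb was 0.935 to the left and 1.0 to the right in naive ESCs, and 0.956 and 0.979 in EpiLCs.

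In 50 kb windows over 1.5 Mb on each side, 3 of 30 naive dCD windows passed 1.2 on the left and 21 of 30 on the right. In EpiLCs 1 of 30 and 23 of 30 did. Of all 50 kb windows with at least 30 control reads, 15.6% and 9.03% passed in the respective state. The groups overlapped, since the left windows ranged from 0.706 to 1.40 and the right ones from 0.956 to 1.63 in naive ESCs. The remaining genes near the step were Srsf6, L3mbtl1 and Sgk2 to the left, and Tox2 to the right, whose start is 143 kb away.

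**Figure D3:**
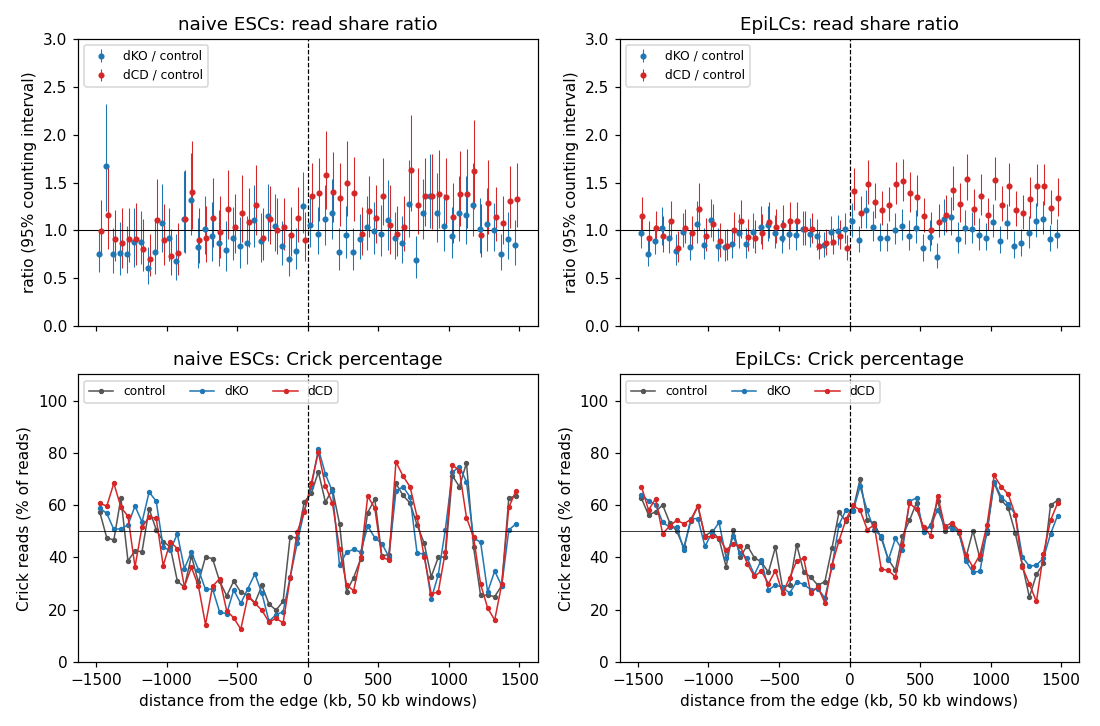
Read share ratio with 95% counting intervals (top) and Crick percentage (bottom) in 50 kb windows within 1.5 Mb of the step, by distance from it in kb, in naive ESCs (left) and EpiLCs (right). Control is grey, dKO blue and dCD red. The dCD ratio moves up at 0 (50 kb values of 0.905 and 1.35 in naive ESCs), whereas the Crick percentage of all 3 lines climbs over a wider stretch around it (from 44.6% to 66.4% over 200 kb on each side in the naive control).

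Fork direction, which the choice of the segment did not use, was read on both sides of the step. With sides of 100 kb or 200 kb the Crick percentage was higher to the right than to the left in every library. From the 200 kb to its left to the 200 kb to its right it went from 44.6% to 66.4% in the naive control, from 40.7% to 71.2% in dKO and from 38.1% to 69.6% in dCD. In EpiLCs it went from 45.9% to 59.4%, from 43.3% to 58.1% and from 39.6% to 55.2%. To the left, dCD minus control was -6.52 points (-12.9 to -0.0694) in naive ESCs and -6.25 (-10.1 to -2.38) in EpiLCs. To the right the difference was 3.21 points (-2.43 to 8.86) and -4.17 (-7.75 to -0.545).

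Over 1 Mb, the Crick percentage to the left of the step differed between dCD and the control by -6.17 points (-9.16 to -3.15) in naive ESCs and -3.40 (-5.25 to -1.54) in EpiLCs. The dKO line had -2.29 (-5.37 to 0.800) and -3.47 (-5.35 to -1.59) there. To the right the dCD difference was 0.0163 points (-2.90 to 2.94) in naive ESCs and -2.31 (-4.01 to -0.615) in EpiLCs. The interval of dCD thus excluded 0 to the left in both states and to the right in EpiLCs, and that of dKO to the left in EpiLCs. Of all 100 kb windows, 20.1% in naive ESCs and 22.0% in EpiLCs had a dCD interval without 0. Over all windows the spread of the dCD Crick percentages was 1.34 and 1.28 times that of the control. Whether the differences at the step go beyond this was not tested.

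The step in reads lies in a stretch where forks diverged in all 6 libraries when read over 100 kb on each side. The climb was not sharp at the step itself. Within 25 kb on each side the strand bias, the Crick percentage to the right minus that to the left, was -11.2 points (SE from counting 9.12) in the naive control, 0.709 (8.23) in dKO and 1.61 (9.09) in dCD, and in EpiLCs it was 5.50 (6.33), -6.82 (5.34) and -0.787 (5.32). With 50 kb sides it was above 0 in all libraries but EpiLC dKO, at -0.348 (3.78). With 100 kb sides it was 14.6 (4.26), 21.04 (4.39) and 21.4 (4.27) in naive ESCs, and 9.34 (2.83), 7.12 (2.67) and 8.73 (2.58) in EpiLCs. The dCD minus control difference at 100 kb was 6.74 points (-5.07 to 18.6) in naive ESCs and -0.614 (-8.12 to 6.89) in EpiLCs, and both intervals include 0. A shift of both sides in the same direction cancels in this measure.

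Over the whole segment the Crick percentage stayed near 50% in all libraries. It was 50.1% in the naive control, 50.4% in dKO and 50.7% in dCD, and 50.3%, 50.2% and 50.2% in EpiLCs. The difference of dCD from the control was 0.593 points (-0.112 to 1.3) in naive ESCs and -0.0720 (-0.489 to 0.345) in EpiLCs. In the flank the naive differences were 0.778 (0.0550 to 1.5) for dCD and 0.813 (0.106 to 1.52) for dKO.

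Along the segment, the Crick percentages of dCD followed those of the control in most windows. The libraries lay on opposite sides of 50% in 28 of 165 naive windows and 20 of 173 EpiLC windows, beside 4163 of 24969 and 3443 of 25229 over all windows. Across 165 windows of 100 kb in naive ESCs, the Crick percentages of dCD and the control correlated with r = 0.904, against 0.889 in the 199 windows of the flank and 0.862 over all 24969 windows. In EpiLCs r was 0.920 in 173 windows of the segment, 0.914 in the flank and 0.908 over all. These are descriptions across windows of the same libraries, which share depth and base composition and are not replicates. The dKO profile correlated with the control at 0.890 and 0.894 in the segment.

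**Figure D4:**
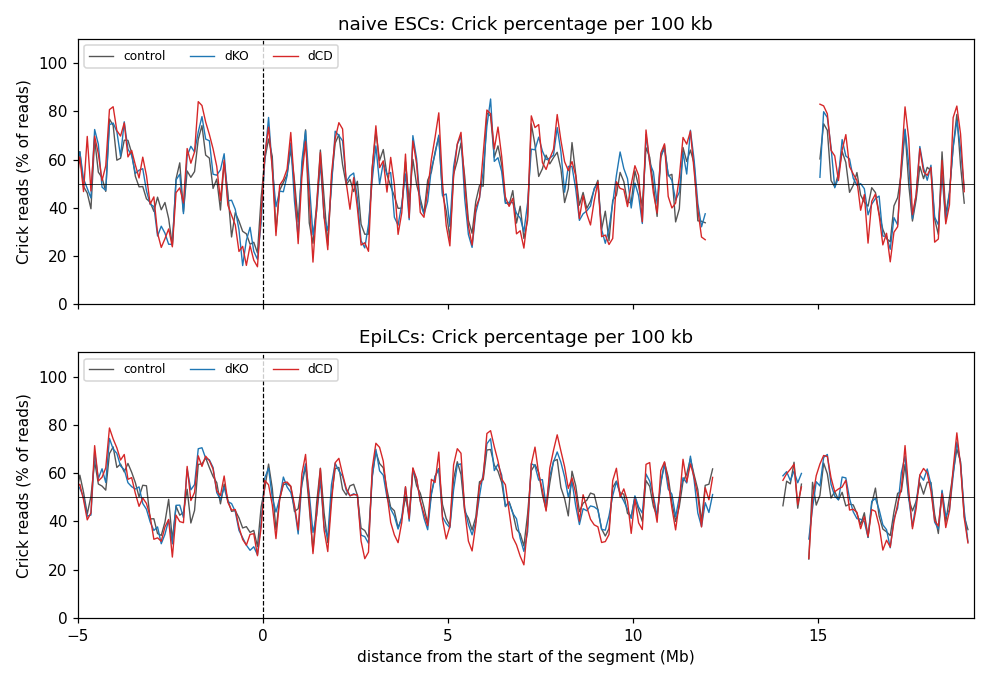
Crick percentage of the reads per 100 kb (y axis) against the distance from the start of the segment in Mb (x axis), for control (grey), dKO (blue) and dCD (red), in naive ESCs (top) and EpiLCs (bottom). Windows with under 30 reads in any line of the state are left blank. Most peaks and troughs fall at the same places in the 3 lines (r = 0.904 and 0.920 for dCD and control), and those of dCD reach farther from 50%.

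Peaks and troughs of dCD reached farther from 50%, in the segment as elsewhere. The amplitude, the SD of the Crick percentage over windows with the counting variance removed, was 12.1 points in the naive control, 12.9 in dKO and 16.1 in dCD, and 9.07, 9.92 and 12.7 points in EpiLCs. The ratio of dCD to control was 1.34 and 1.40 in the segment, 1.39 and 1.26 in the flank, and 1.34 and 1.28 over all windows. Counts of windows whose difference from the control had an interval without 0 were 36 of 165 in naive ESCs (21.8%), where 20.1% of all windows did, and 59 of 173 in EpiLCs (34.1%), where 22.0% did. In dKO they were 9.70% in naive ESCs, where 10.2% of all windows did, and 13.3% in EpiLCs, where 13.0% did. The naive share lies near that of all windows, whereas the EpiLC share exceeds it. The flank had 29% in EpiLCs, and the dCD library held more reads per window in the segment than in the flank. The part of depth in that count was not tested.

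In 15 of 165 windows the difference excluded 0 in the same direction in both states (9.09%). This was so in 18 of 199 windows of the flank (9.05%) and in 5.54% of all 24969 windows, so the share lies near that of the flank. Opposite directions in the 2 states were found in 1 of 165 windows of the segment, 1 of 199 of the flank and 0.421% of all windows. The most extended run lay from 170900001 to 171200000, where 3 windows in a row had more Crick reads in dCD. In the middle window the Crick percentages were 56.1%, 63.3% and 67.9% in the naive control, dKO and dCD, and 54.0%, 64.5% and 69.2% in EpiLCs, a difference for dCD of 11.8 (1.9645 to 21.5) and 15.1 points (9.64 to 20.6). The dKO values lay between those of control and dCD there in both states. Fewer Crick reads in dCD in both states were found in the window from 169900001, where the Crick percentage was 40.6% in the naive control and 30.5% in dCD, and 34.9% and 25.6% in EpiLCs.

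Differences over 100 kb windows correlated between the states with r = 0.42 across 165 windows, while the dCD read ratios correlated with r = 0.20. For comparison, the Crick percentage of the control itself correlated between the states with r = 0.85, and that of dCD with r = 0.86. These values come from separate libraries of the same lines.

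At zones of initiation inside the segment, the 95% counting interval of the dCD minus control difference in strand bias included 0 in both states. A zone was a peak of strand bias, 10 points or higher in the mean of the 3 libraries of a state, and then measured in the other state, so that calling and measuring used separate reads. At 86 of 103 zones called in EpiLCs that had at least 10 reads per 25 kb side in naive ESCs, the mean strand bias there was 14.5 points (SE 0.989) in the control, 14.5 (1.06) in dKO and 15.2 (0.921) in dCD. At the 152 zones called in naive ESCs, EpiLCs showed 6.59 (0.492), 7.67 (0.450) and 7.49 (0.377).

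The dCD minus control difference was 0.639 points (-2.01 to 3.29) and 0.903 (-0.311 to 2.12), so differences below about these bounds cannot be seen at this depth. In the flank it was -1.52 (-4.01 to 0.979) and 0.475 (-0.645 to 1.59). At protein-coding start sites of the segment the mean was 6.40 (0.605), 5.24 (0.651) and 5.37 (0.569) points over 218 sites in naive ESCs, and 3.13 (0.440), 3.62 (0.400) and 4.18 (0.337) over 230 sites in EpiLCs. Neither of the dCD differences, -1.03 (-2.66 to 0.594) and 1.05 (-0.0415 to 2.13), excluded 0. With sides of 10 kb the naive difference was -2.76 (-5.31 to -0.209), which did, and with 50 kb sides it was 0.287 (-0.912 to 1.49). The EpiLC difference excluded 0 with 50 kb sides, at 1.13 (0.317 to 1.94), and with at least 20 reads on each side, at 1.02 (0.0181 to 2.01), but was 0.0375 (-1.51 to 1.59) with 10 kb sides. The call at start sites thus turns on these settings in both states.

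The zone between Stau1, which encodes a double-stranded RNA binding protein, and Ddx27, an RNA helicase gene, ranked highest among the naive zones and was among the 6 highest of EpiLCs. Called at 167005000 in naive ESCs, it had the Stau1 start nearest, at -8.70 kb, and the EpiLC call at 167006000 had the Ddx27 start nearest, at 9.19 kb to its right. The strand bias in EpiLCs at the naive call was 36.8 (counting SE 5.23) in the control, 38.4 (4.84) in dKO and 24.4 (4.24) in dCD. In naive ESCs at the EpiLC call it was 40.5 (8.13), 61.7 (6.75) and 46.1 (7.26). The genes start on opposite strands and are transcribed away from each other, and the promoters printed above lie on either side of the zone.

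The other naive zones with the largest strand bias lay near Pkig, Sdc4, Ncoa3 and Gmeb2, and near Gm14403 in the stretch of few reads. Measured in EpiLCs, their bias in control and dCD was 16.0 and 26.0 at the Pkig zone, 22.9 and 13.4 at the Sdc4 zone, 13.5 and 16.4 at the Ncoa3 zone, and 20.1 and 14.0 at the Gmeb2 zone, with counting SEs between 4.11 and 6.23. At the Gm14403 zone, on fewer reads, it was 11.1 (SE 10.9) and 30.1 (7.64). No direction was common to them. The remaining EpiLC zones of this rank lay between 177178000 and 177924000 and at 182012000, where a naive side held from 0 to 47 reads, and no value is read from them.

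Around gene starts, most of the listed genes of the segment had more reads in dCD. Reads were counted in the 100 kb centred on the start of 35 genes of the segment and 7 of the flank, and overlapping windows such as those of Rtel1 and Gmeb2 share reads. These are reads of Okazaki fragments, not of transcripts, so the values say nothing of expression. In dCD, 29 of 35 genes were above 1.2 in naive ESCs and 33 of 35 in EpiLCs, with medians of 1.31 and 1.38. Among all protein-coding starts with at least 30 control reads, 8.97% of 21190 were in naive ESCs and 3.22% of 21355 in EpiLCs, and among all such starts of the segment 189 of 242 and 232 of 247. In the flank 1 of 7 and 0 of 7 were, with medians of 1.06 and 1.02, and in dKO 2 of 35 and 0 of 35 genes of the segment, where 6.26% and 1.24% of all starts were. The genes are ordered below by role, and these groups, formed after the values were seen, were not compared by a test. Since 78.1% of all such starts of the segment passed in naive ESCs and 93.9% in EpiLCs, nothing is read from the counts by role.

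Of the 16 genes for transcription factors, 13 passed in naive ESCs and 16 in EpiLCs. Sall4, a zinc finger factor of pluripotent cells, had 282, 238 and 338 reads in naive control, dKO and dCD and 643, 778 and 1075 in EpiLCs. Its dCD ratio was 1.45 (1.23 to 1.69) and 1.40 (1.27 to 1.54), and its dKO ratio 0.945 and 1.06, each with an interval that includes 1. In naive ESCs the dCD library was the highest by raw count too, although it is the smallest of the 6. The EpiLC dCD library is the largest of the 6, so its raw count is not read in this way.

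Zfp217, a zinc finger factor amplified in breast cancers, had 263, 220 and 298 naive and 606, 730 and 1152 EpiLC reads, with dCD ratios of 1.37 (1.16 to 1.61) and 1.59 (1.44 to 1.76), the second the highest of the 35 genes in EpiLCs. Tfap2c, a factor of trophoblast and germ cell precursors, had dCD ratios of 1.26 and 1.33. Hnf4a, a liver and gut factor whose start lies 507 kb from the start of the segment, had 1.19 (0.987 to 1.43) in naive ESCs, where the interval includes 1, and 1.34 (1.21 to 1.5) in EpiLCs. Ctcfl, the germ line paralog of the insulator protein CTCF, had 1.16 (0.962 to 1.39) and 1.23 (1.11 to 1.37).

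Of 6 genes for the cell cycle, mitosis and genome maintenance, 4 passed in either state. Mybl2 itself, whose window straddles the step, had 238, 251 and 229 naive and 555, 676 and 704 EpiLC reads. Its dCD ratios of 1.16 (0.968 to 1.39) and 1.06 (0.951 to 1.19) stayed close to its dKO ratios of 1.18 and 1.07. Ube2c, the ubiquitin-conjugating enzyme of the anaphase promoting complex, had dCD ratios of 1.27 and 1.41. Aurka, the mitotic kinase Aurora A, had 1.34 (1.11 to 1.63) in naive ESCs and 1.15 (1.03 to 1.28) in EpiLCs, where 2 genes of the 35, Aurka and Mybl2, did not pass 1.2. Rtel1, a helicase that guards telomeres, had 1.16 (0.978 to 1.38) and 1.24 (1.13 to 1.37).

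Of 5 genes for coactivators, chromatin readers and RNA regulators, 4 passed in naive ESCs and 5 in EpiLCs. Zmynd8, a reader of histone acetylation, had the highest naive dCD ratio of the 35 genes, 1.72 (1.46 to 2.02), on 250, 278 and 356 reads, and its dKO ratio of 1.25 (1.05 to 1.48) was the highest as well. In EpiLCs its ratios were 1.42 and 1.11. Ncoa3, a nuclear receptor coactivator, had dCD ratios of 1.41 and 1.47 beside dKO ratios of 1.04 and 1.05.

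All 8 genes for signalling, channels, adhesion and matrix passed in both states. Edn3, the ligand endothelin 3, had dCD ratios of 1.67 (1.38 to 2.01) and 1.52 (1.37 to 1.69). Gnas, which encodes the stimulatory G protein alpha subunit and lies in an imprinted cluster, had 1.3 (1.1 to 1.54) and 1.44 (1.3 to 1.59). Bmp7, a BMP ligand, had 1.42 and 1.3. In the flank, Dnmt3b, the de novo DNA methyltransferase that rises in EpiLCs, had 0.941 (0.785 to 1.13) and 0.907 (0.819 to 1.01).

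**Figure D5:**
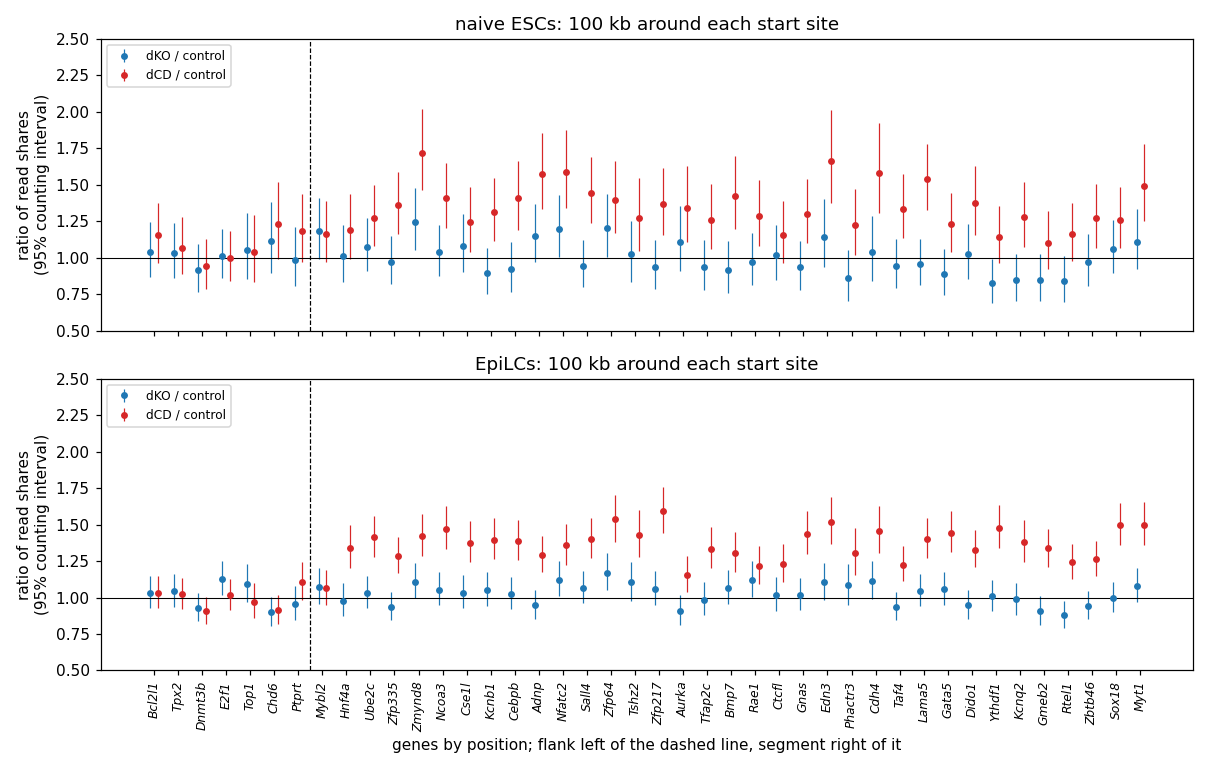
Ratio of read shares over the control in the 100 kb around the start of each listed gene (y axis) with 95% counting intervals, genes in order of position on the x axis, in naive ESCs (top) and EpiLCs (bottom), dKO in blue and dCD in red. Left of the dashed line are 7 flank genes, right of it the 35 of the segment. Right of it dCD lies above 1 at every gene in both states (naive median 1.31, EpiLC median 1.38 over the 35 genes).

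The segment is richer in genes and in G and C than the rest of the genome. It has 46.6% GC, against 44.1% in the flank and 41.8% over the autosomes and X, and 14.1 protein-coding genes per Mb against 12.7 and 8.26. Bins without a read in any library made up 11.8% of the segment (2252 of 19113), 1.88% of the flank and 6.67% of all bins, and 24.4% of the bases in those of the segment were N.

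Within the segment the gain was present at all levels of these features, and along GC its differences ran in opposite directions in the 2 states. From the tercile of windows lowest in GC to the highest, the dCD ratio went from 1.31 (1.28 to 1.35) to 1.38 (1.35 to 1.41) in naive ESCs and from 1.44 (1.42 to 1.46) to 1.35 (1.33 to 1.36) in EpiLCs. Across windows, GC correlated with the log2 dCD ratio with r = 0.37 in naive ESCs and -0.31 in EpiLCs, and with the log2 dKO ratio with r = 0.27 and -0.15. In the tercile with fewest protein-coding starts the dCD ratio was 1.36 and 1.44, and in that with most 1.32 and 1.35, lower in both states. The part of base composition and of library depth in these differences was not tested.

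Between the states the segment lost some share in all lines. From naive ESCs to EpiLCs its share changed by a factor of 0.934 (0.923 to 0.946) in the control, 0.973 (0.961 to 0.985) in dKO and 0.963 (0.952 to 0.973) in dCD. In the flank the factor was 0.991, 1.0 and 0.963. The gain over the control was 1.03 times as large in EpiLCs as in naive ESCs in dCD (1.01 to 1.05) and 1.04 times in dKO (1.02 to 1.06), and both lines were compared with the same control libraries. With dKO as the reference, an alternative chosen after seeing the data, the dCD value was 0.989 (0.973 to 1.01), on the other side of 1, so the state difference of the gain depends on the reference.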

How the data were processed

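OK-seq of 6 conditions with 2 replicates each (12 samples) was analysed. Per the labels, the reads were processed with FastQC, Trim Galore, Bowtie2 and Picard, and mm10 is among the builds named. The authors deposited Watson and Crick signal, a read density per bp in 2725511 bins of 1 kb, with replicates summed and library sizes not equalised. Every value was a whole multiple of 0.001, and multiplying by 1000 gave whole reads. Depth ranged from 3655095 to 13601460 reads.

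On the autosomes and X, 83 bins over 10 times the median count were left out. Ratios of read shares have 95% intervals from Poisson counts, differences of Crick percentages Newcombe intervals, and both cover counting error only. With 1 summed track per condition no p-value was computed, and all comparisons are between libraries. Windows needed 30 control reads per 100 kb. The step was placed by the binomial likelihood. Genes are those of GENCODE M21. The named genes are a fixed list of 35 genes of the segment and 7 of the flank, the genes nearest the step, and the 6 zones of largest strand bias in each calling state. Members, lists and tests were chosen with earlier results of these data known, and the groups of genes by role after their values had been seen. Alternatives covered the reference, denominator, bins, depth, window size and fold. The step and interval procedures were run on simulated Poisson counts, which lack the spread beyond counting seen between windows. That run therefore cannot show whether the span of the step is wide enough. Python 3.11.15, numpy 2.4.6, pandas 2.3.3 and matplotlib 3.10.9 were used.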

Additional observations from a re-analysis of the deposited data

Results flagged for a closer look

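One 100 kb window of the segment, from 166400001 to 166500000, had Crick differences that ran in opposite directions in the 2 states. In naive ESCs the Crick percentage was 48.9% in the control (237 reads) and 60.9% in dCD (248 reads), a difference of 11.9 points (3.08 to 20.5). In EpiLCs it was 45.9% (523 reads) and 39.6% (823 reads), a difference of -6.28 points (-11.7 to -0.866). The difference between the states was not tested. It was 1 of 165 windows compared, against 15 in which both states moved the same way, and 0.421% of all 24969 windows had such opposite differences. Its dCD read ratio was 1.26 and 1.32. No window had read ratios on opposite sides of 1 with both intervals clear of it, in dCD or dKO, and no window of dKO had opposite Crick differences.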

How the results depend on the processing

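No paired analysis was possible because each deposited track sums the 2 replicates of its condition, and for the same reason no replicate could be left out. Of 112 alternative values, 87 stayed within the counting interval of the reported value, or within 1.5 times a percentage of windows or 0.05 of a correlation, 24 moved and 1 reversed. Among the 80 of ratios and differences, 4 lay on the other side of no change. The reversed value was the gain of dCD in EpiLCs over that in naive ESCs, 0.989 (0.973 to 1.01) with dKO as reference against 1.03, and it was 1.06 over the flank. The cause was not tested. The other 3 had intervals that span no change before and after. These were the naive dKO gain over the flank (1.02, against 0.994), the naive dCD zone bias with 10 kb sides (-0.188, against 0.639) and the naive dCD start-site bias with 50 kb sides (0.287, against -1.03). In 6 the interval changed in whether it includes no change. These were the reversed value, the naive dKO gain from 5 Mb on (0.981), the dCD state change over the flank, and the start-site bias in naive ESCs with 10 kb sides and in EpiLCs with 50 kb sides (1.13) or 20 reads (1.02). With the flank as denominator the naive gain was 1.39 in dCD and 1.02 in dKO, the EpiLC gain 1.47 and 1.05, and the state change in dCD 1.0. The EpiLC dCD gain was 1.34 against dKO, 1.38 after thinning, 1.41 from 5 Mb on and 1.41 as the median over windows. The EpiLC dKO gain was 1.05 over the rest of chromosome 2, 1.02 after thinning and 1.05 as the median over windows. The naive step against dKO fell at 163095000. The percentage of dKO windows above the ratio was 9.61 in naive ESCs and 7.56 in EpiLCs with 50 kb windows, 0 and 0 with 500 kb windows, 19.5 and 22.0 above 1.1, and 1.78 and 2.31 above 1.3. Over all windows the dKO percentages were 15.01 and 4.55, 0.337 and 0.0590, 22.9 and 11.9, and 2.46 and 0.178 in the same order. Those of dCD in the segment were 79.3 and 91.6, 94.1 and 100, 94.7 and 98.3, and 62.7 and 80.3, beside 16.2 and 9.11, 2.14 and 1.63, 24.3 and 20.4, and 3.34 and 1.59 over all windows. By these limits 62.7% against 85.2% counts as unmoved. The percentages over all 50 kb windows here include windows with fewer control reads than those given around the step. The naive dCD profile correlated with the control at 0.968 in 500 kb windows. With 10 kb sides the naive strand bias difference at start sites was -2.76. The joint step, the omission of 175000001 to 178000000 and the alternatives for the state change of the gain were chosen after seeing the data. The naive libraries hold fewer reads than the EpiLC libraries, and the spread between replicates is unknown.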
